A study of Mus musculus with 6 samples.

Results

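The genes described here are the 91 nuclear-encoded genes, of 21760 gene symbols in the count table, whose symbols begin with Nduf, Uqcr, Cox4 to Cox8 or Atp5, or are Sdha to Sdhd, pseudogene symbols left out. They fall under 5 complexes of oxidative phosphorylation: 45 under complex I, 4 under complex II, 8 under complex III, 17 under complex IV and 17 under complex V. The symbol, not a measured value, decided membership. By function 82 of them encode subunits or tissue isoforms of subunits. The other 9 are the assembly factors Ndufaf1 to Ndufaf7 and the factors Atp5s and Atp5sl. Subunits whose symbols lie outside the rule, such as Cyc1 and Usmg5, were kept apart, and mitochondrially encoded subunits were not analysed here.

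Macrophages were sorted by flow cytometry from subcutaneous tumours of MC38, a mouse colon carcinoma line, 16 days after the tumours were begun in C57BL6 mice, and ribosome-depleted total RNA was sequenced. The tumours were wild type (WT, 2 mice) or came from Xkr8 knockout (KO) clone 1 or clone 2 (2 mice each), with 1 library per mouse and no further treatment. Xkr8 is a scramblase that caspases activate to expose phosphatidylserine on dying cells, and the study asked how tumour macrophages respond when this exposure is blocked. The knockout was in the tumour cells, and the macrophages belong to the host. Each KO group is a single clone, so the effect of losing Xkr8 and that of other clonal traits cannot be told apart. The labels state neither the age nor the sex of the mice.

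Oxidative phosphorylation passes electrons from NADH through complex I, and from succinate through complex II, to ubiquinone. Complex III passes them on to cytochrome c and complex IV to oxygen. Complexes I, III and IV pump protons across the inner mitochondrial membrane, and complex V, the ATP synthase, uses the returning protons to make ATP. Macrophages activated by interleukin 4 are known for high oxidative metabolism, whereas those activated by lipopolysaccharide lower it and accumulate succinate, the substrate of complex II.

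Levels are given as CPM, counts scaled to a common library size after adjustment by the trimmed mean of M values. One library, WT mouse 2, was unlike the rest. It held 20038047 counts where the others held 37090034 to 40022755, and Rn45s, the ribosomal RNA precursor, made up 24.6% of them where it made up 1.46% to 7.12% elsewhere. Members received 0.428% of its counts and 0.611% to 0.804% of the others. With Rn45s left out of the totals, these shares were 0.569% and 0.626% to 0.816%. The summed level of 10 macrophage markers lay between 7795 and 10944 CPM in all libraries, none of the 10 being at 0. Among them Adgre1 (673 and 512 CPM in WT, 771 to 972 CPM in KO) and Fcgr1 (269 and 275, and 447 to 485) did not overlap. The other macrophage markers did, and none was called. Summed fibroblast markers (5 genes) were 11565 CPM in WT mouse 2 against 2357 to 4118 CPM elsewhere, and 1 gene, Col3a1, supplied 10974 CPM of it. Of the other fibroblast markers, Col1a1 and Pdgfra were also highest in WT mouse 2 (282 and 163 CPM), while Dcn was lowest there (123 CPM against 257 to 473 CPM). Summed T and NK cell markers (10 genes) were 14.9 and 23.1 CPM in the WT pair, against 63.7 to 130 CPM in KO libraries, and summed monocyte markers (5 genes) 296 and 68.4 CPM against 465 to 904 CPM. Of these, 2 T and NK cell markers and 1 monocyte marker were called higher in KO. Summed neutrophil (25.2 to 26.8 CPM in WT, 46.4 to 64.3 in KO), dendritic (13.7 to 15.5, and 21.5 to 36.3) and endothelial markers (23.3 to 30.4, and 47.6 to 61.6) were also higher in every KO library. Summed fibroblast, epithelial or tumour, and erythroid markers were lower in every KO library. No marker of these types was called. The part of these other cell types in the values below was not tested, and in sorted bulk cells fewer cells of a type cannot be told apart from less RNA per cell.

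The 4 stretches printed here are from promoters of these genes, 1 from each of complexes I, III, IV and V. They were searched on both strands for the sequences that nuclear respiratory factor 1 (NRF1), ETS factors and YY1 bind, which are known in promoters of respiratory chain genes. RefSeq (GRCm38.p6) held windows of 300 bases around the start for 76 member genes, 82 windows in all. The NRF1 motif, GCGCA and GCGC separated by any single base, occurred in 20 of these windows (24.4%) and in 4.6% of all 32851 windows. AAGATGGC (YY1) occurred in 12 (14.6%) against 2.75%, and CCGGAAGT (ETS) in 5 (6.1%) against 3.89%. The letters of the 3 motifs differ, and a match describes the letters and does not show binding. The printed stretches were those with the most matches among subunit genes of their complex, ties by gene name. A match in them was therefore fixed by the choice. Each stretch lies upstream of the start and outside annotated exons, on the minus strand, written 5′ to 3′ with the matched letters in capitals, those of NRF1 or, in Uqcr11, of ETS.
Ndufb4 (chr16:37654454-37654618): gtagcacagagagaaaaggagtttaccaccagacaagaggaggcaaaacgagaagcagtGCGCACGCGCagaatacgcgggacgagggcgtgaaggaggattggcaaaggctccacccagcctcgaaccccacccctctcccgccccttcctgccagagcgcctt
Uqcr11 (chr10:80406831-80407071): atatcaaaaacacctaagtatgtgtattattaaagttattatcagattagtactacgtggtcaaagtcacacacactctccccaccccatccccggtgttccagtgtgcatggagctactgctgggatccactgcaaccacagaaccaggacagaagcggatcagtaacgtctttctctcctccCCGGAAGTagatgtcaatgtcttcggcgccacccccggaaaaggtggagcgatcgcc
Cox6a1 (chr5:115348982-115349129): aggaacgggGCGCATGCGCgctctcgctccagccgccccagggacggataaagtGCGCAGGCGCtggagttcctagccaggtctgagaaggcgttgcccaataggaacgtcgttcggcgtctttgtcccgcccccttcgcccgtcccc
Atp5h (chr11:115419963-115420127): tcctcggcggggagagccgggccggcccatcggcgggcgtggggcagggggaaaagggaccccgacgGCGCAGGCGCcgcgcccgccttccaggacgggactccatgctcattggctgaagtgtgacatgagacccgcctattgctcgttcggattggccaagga
Ndufb4 and Cox6a1 both match the NRF1 motif. In WT mouse 2, Ndufb4 lay below the range of the other libraries and Cox6a1 above it, as their values below show. Any part of the motif in these values was not tested.

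The summed levels of the members overlapped between macrophages of WT and KO tumours. All 91 together came to 6977 and 5726 CPM in WT mouse 1 and mouse 2, 5719 and 7215 CPM in clone 1, and 6777 and 7004 CPM in clone 2. The WT mean was 6351 ± 885 CPM (SD, n = 2) and the KO mean 6679 ± 664 CPM (SD, n = 4), so the groups overlapped. The lowest sums belonged to clone 1 mouse 1 and WT mouse 2, nearly equal to each other.

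**Figure D1:**
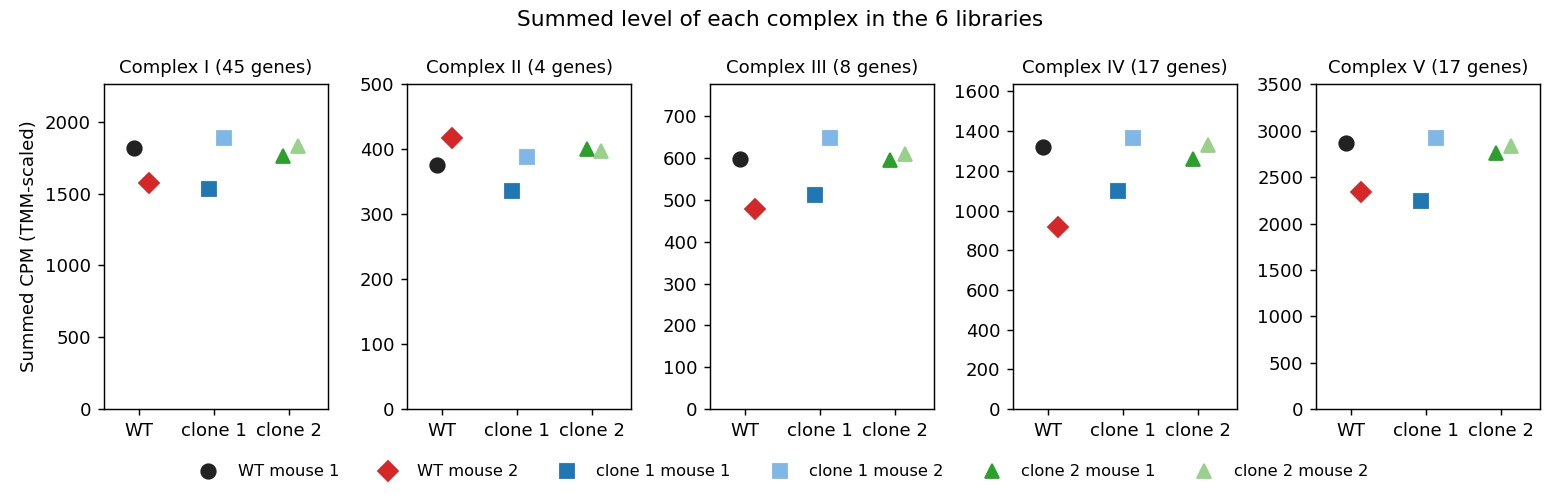
Summed CPM of the member genes of each complex in the 6 libraries, points in a colour and shape for each library, each axis starting at 0. Complex V has the highest sum and complex II the lowest, and clone 1 mouse 1 lies under clone 1 mouse 2 in each complex.

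Complex V supplied 39.2% to 41.1% of the summed member level in every library and complex I 26.0% to 27.5%. Complex II summed to 375 and 418 CPM in WT, 337 and 388 CPM in clone 1 and 401 and 398 CPM in clone 2. Complex IV summed to 1318 and 920 CPM in WT, 1099 and 1366 CPM in clone 1 and 1261 and 1331 CPM in clone 2. WT mouse 2 was thus the highest library for complex II and the lowest for complex IV. Per kilobase of annotated exon, with the median of the 5 libraries other than WT mouse 2, the highest levels were 385 CPM per kb for Atp5b, the catalytic beta subunit of ATP synthase, and 250 for Cox4i1, a regulatory subunit of cytochrome c oxidase. Cox8a followed at 233 and Atp5a1, the alpha subunit, at 229. Atp5o had no annotated length to scale by.

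A total of 88 members had enough counts to be tested. Cox7b2 (7 reads over all libraries), Cox8b (3) and Ndufa4l2 (36), isoforms of testis, muscle and hypoxic or vascular cells respectively, did not. In KO against WT, edgeR's quasi-likelihood test with Benjamini-Hochberg adjustment called 0 of the 88, while it called 21 of 15560 genes tested (0.135%). The smallest adjusted p among members was 0.303. DESeq2 and limma-voom also called 0 members, where they called 3.21% and 0.103% of all genes. At an unadjusted p under 0.05 there were 2 members with edgeR, where it placed 13.6% of all genes. DESeq2 placed 3 members there and limma-voom 2, and the share of all genes was not counted for these tools. The log2 fold change was positive for 52 members and negative for 36, with a median of 0.09 against 0.00 over all genes.

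Leaving out WT mouse 1 rests the WT group on WT mouse 2 alone. The median was then 0.31 over members and 0.07 over all genes. With WT mouse 2 left out, 33 of 88 values were positive, and the median was -0.04 over members and -0.01 over all genes.

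**Figure D2:**
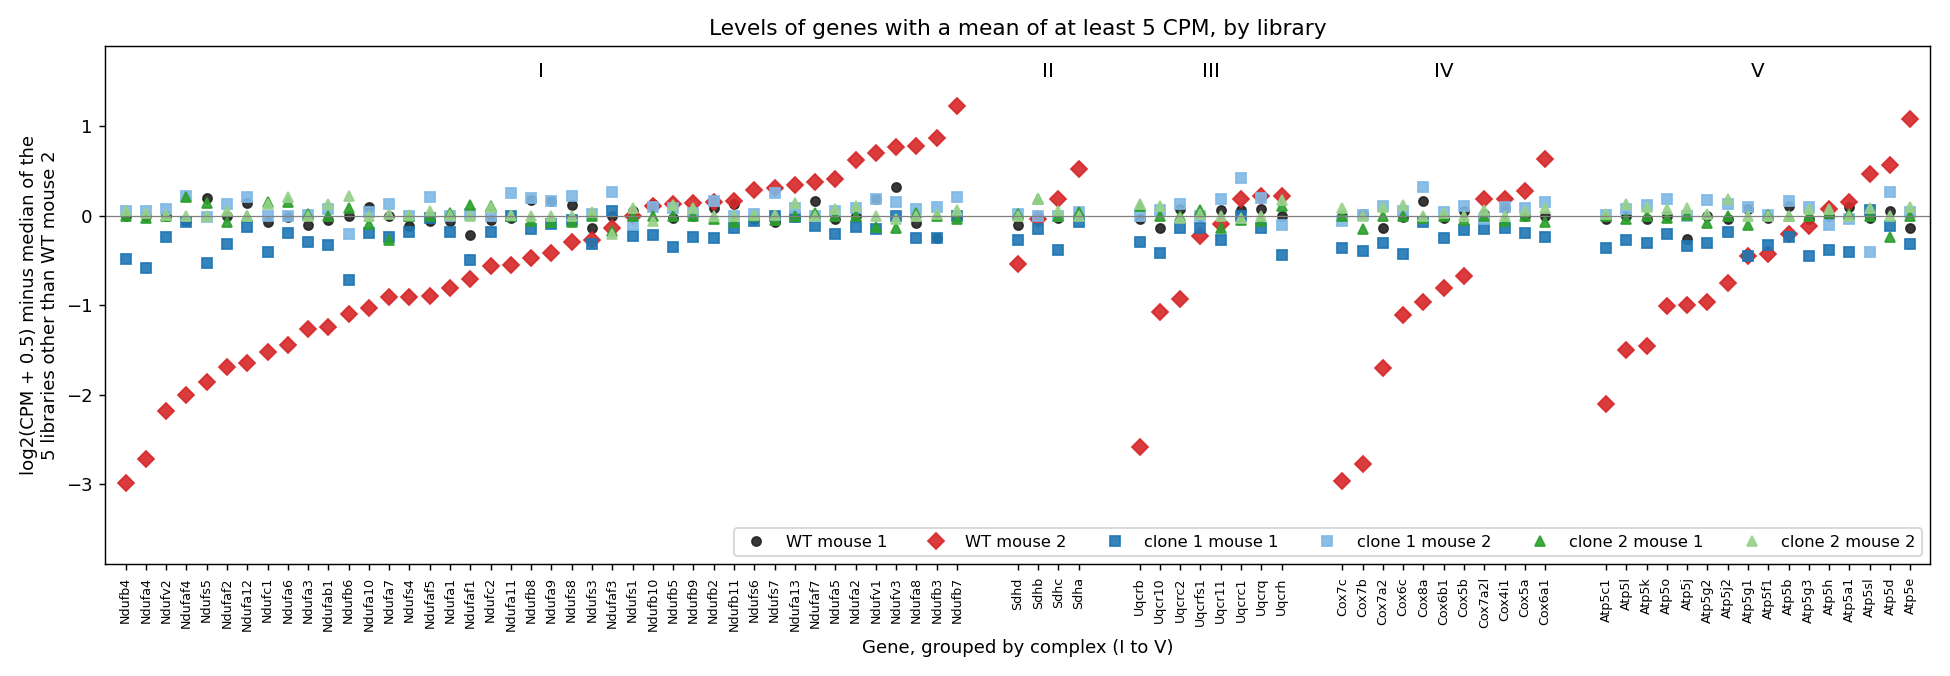
Levels of the members with a mean of at least 5 CPM in each library, 1 gene left out, as log2(CPM + 0.5) minus the median of the 5 libraries other than WT mouse 2, grouped by complex, with 1 point per library. WT mouse 2 scatters widely to both sides, and clone 1 mouse 1 lies low for most members.

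Complex I takes electrons from NADH, and its 44 tested members had 26 positive and 18 negative KO-against-WT values, median 0.09. The 2 members with an unadjusted p under 0.05 belong to the module that oxidises NADH. Ndufv3 (chromosome 17, 31520115 to 31531331, plus strand, GRCm38), a small subunit of this module, stood at 49.6 and 67.4 CPM in WT, 39.5 and 44.0 CPM in clone 1, and 35.9 and 38.6 CPM in clone 2. Both WT libraries were above all 4 KO libraries. On the log2 scale it differed by -0.59 ± 0.19 (SE), adjusted p 0.303 by edgeR. Ndufv1 (chromosome 19, 4007384 to 4012806, minus strand), which binds NADH and the flavin cofactor, stood at 73.9 and 106 CPM in WT, 58.2 and 73.5 CPM in clone 1, and 59.0 and 64.6 CPM in clone 2. Again the WT libraries were above, WT mouse 1 by a margin smaller than the spread among KO libraries. Its value was -0.52 ± 0.20 (SE), adjusted p 0.344 by edgeR. Without WT mouse 2, which was the highest library for both, the values were -0.35 for Ndufv3 and -0.23 for Ndufv1.

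Ndufv2, which shares the NADH-oxidising module with them and carries an iron-sulfur cluster, did not follow that order. It stood at 68.6 and 14.7 CPM in the WT pair, with a KO range of 58.3 to 72.5 CPM, so WT mouse 2 alone was low. The core subunits Ndufs1, Ndufs3, Ndufs7 and Ndufs8 overlapped between genotypes. Ndufs1, the large iron-sulfur subunit, was at 64.7 to 80.6 CPM over all 6 libraries. Ndufs3 ranged from 36.6 to 46.9 CPM, and its log2 fold change was 0.12 ± 0.17 (SE). The iron-sulfur subunits Ndufs7 and Ndufs8 ranged from 30.0 to 39.2 and from 39.7 to 57.1 CPM, with values of -0.10 ± 0.19 and 0.08 ± 0.18. No core subunit of complex I was called, and Ndufv1 had the smallest p among them.

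Among tested members of all complexes, 2 had every KO library above both WT libraries, against 13.1% of all genes, and 6 had every KO library below, against 10.4%. The 2 were Ndufa11, a membrane-arm subunit, and Ndufaf5, an assembly factor. Ndufaf5 read 10.9 and 5.87 CPM in the WT pair, and the KO libraries ran from 11.2 to 13.3 CPM, 0.48 ± 0.26 (SE) on the log2 scale with an adjusted p of 0.419 by edgeR. The 6 were Ndufv3, Ndufv1, the membrane-arm subunits Ndufb10 and Ndufb11, the methyltransferase Ndufaf7, which modifies a core subunit, and Atp5a1. Ndufb11 read 32.2 and 32.9 CPM in the WT pair, and the KO libraries ran from 26.6 to 29.4 CPM, -0.23 ± 0.16 (SE). Both shares of members, 2 and 6 of 88, lay under the share of all genes.

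Other complex I members with the smallest p in each direction were set apart by WT mouse 2. Ndufb7 was at 36.0 CPM in WT mouse 1, 86.2 in WT mouse 2 and 35.4 to 42.2 in KO libraries, -0.72 ± 0.32 (SE). Without WT mouse 2 that value was 0.060. Ndufs4, whose loss is known to cause mitochondrial disease, read 40.4 and 23.1 CPM in the WT pair, and the KO libraries ran from 38.7 to 44.2 CPM, 0.41 ± 0.23 (SE). Ndufaf4, an assembly factor, read 15.3 and 3.60 CPM in the WT pair, and the KO libraries ran from 15.1 to 18.7 CPM, 0.82 ± 0.48 (SE). WT mouse 1 overlapped the KO libraries for these genes.

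Complex II links the respiratory chain to the citric acid cycle, and none of its 4 genes passed. Sdha, the flavoprotein that oxidises succinate, stood at 134 and 193 CPM in WT, 127 and 138 CPM in clone 1, and 138 and 134 CPM in clone 2. WT mouse 2 alone was high, and the log2 fold change was -0.31 ± 0.19 (SE), adjusted p 0.447 by edgeR. Sdhb, the iron-sulfur subunit, was at 90.7 and 88.1 CPM in WT, 81.9 and 90.3 CPM in clone 1, and 103 and 103 CPM in clone 2. The clone 2 libraries were the 2 highest for Sdhb. The membrane anchors Sdhc and Sdhd had values of -0.19 ± 0.19 and 0.23 ± 0.18 (SE). Sdhc read 60.8 and 70.8 CPM in the WT pair, and the KO libraries ran from 47.4 to 64.1 CPM. For Sdhd the WT pair read 89.9 and 66.2 CPM and the KO range was 80.0 to 97.7 CPM. The genotypes overlapped for both anchors.

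Complex III oxidises ubiquinol, and its 8 members had 4 positive and 4 negative values, median 0.01. Uqcrc1, Uqcrc2 and Uqcrfs1 overlapped between genotypes. Uqcrc1 read 134 and 146 CPM in the WT pair, and the KO libraries ran from 124 to 172 CPM. The Rieske iron-sulfur protein Uqcrfs1 had 54.3 and 46.5 CPM in the WT pair and a KO range of 49.6 to 57.1 CPM. Uqcrc2 read 112 and 55.7 CPM in the WT pair, and the KO libraries ran from 97.1 to 117 CPM. Uqcrb, which binds near the ubiquinone site, read 78.9 and 13.0 CPM in the WT pair, and the KO libraries ran from 65.7 to 88.5 CPM. Its value of 0.80 ± 0.57 (SE) had an adjusted p of 0.482 by edgeR. Uqcrc2 and Uqcrb were both lowest in WT mouse 2, with WT mouse 1 inside the KO range. The small subunit Uqcr10 had 0.47 ± 0.29, and the small subunits Uqcrh, Uqcrq and Uqcr11 had -0.19 ± 0.21, -0.17 ± 0.18 and -0.06 ± 0.18 (SE).

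Complex IV reduces oxygen, and its 15 tested members had 9 positive and 6 negative values, median 0.19. Cox4i1 read 203 and 219 CPM in the WT pair, and the KO libraries ran from 175 to 205 CPM. Cox5a had 60.1 and 73.2 CPM in the WT pair and a KO range of 52.4 to 63.8 CPM, and Cox5b had 92.5 and 55.9 CPM and a KO range of 80.0 to 96.0 CPM. None of these nuclear-encoded subunits passed, and their groups overlapped. Cox7c (chromosome 13, 86044816 to 86046904, minus strand), a small membrane subunit, was at 109 and 13.5 CPM in WT, 84.4 and 105 CPM in clone 1, and 109 and 115 CPM in clone 2. WT mouse 2 was far under the rest, and the log2 fold change was 0.75 ± 0.65 (SE). Reads of Cox7c are uncertain, since the near-identical Gm10012 is also in the table. Cox7a2 (61.5 and 20.4 CPM in WT, 54.7 to 72.7 CPM in KO libraries) and Cox6c (164 and 76.7, and 123 to 179) were also low in WT mouse 2 alone. Cox6a1 was high in that library alone, with 73.9 and 115 CPM in the WT pair and a KO range of 62.4 to 82.0 CPM, -0.39 ± 0.23 (SE). Cox8a had 144 and 65.2 CPM in the WT pair and a KO range of 122 to 160.3 CPM, 0.34 ± 0.30 (SE). Cox6b1 read 118 and 68.0 CPM in the WT pair, and the KO libraries ran from 100.4 to 123 CPM, 0.31 ± 0.23 (SE).

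Complex V makes ATP, and its 17 members had 11 positive and 6 negative values, median 0.12. Atp5b was at 797 and 641 CPM in WT, 628 and 828 CPM in clone 1, and 735 and 738 CPM in clone 2, a log2 fold change of 0.00 ± 0.19 (SE). Atp5a1 was at 710 and 742 CPM in WT, 501 and 647 CPM in clone 1, and 673 and 665 CPM in clone 2. The WT libraries were both above the KO libraries for Atp5a1, but its value of -0.25 ± 0.19 (SE) had an adjusted p of 0.505 by edgeR. Atp5c1, the central-stalk gamma subunit, read 213 and 50.6 CPM in the WT pair, and the KO libraries ran from 170 to 222 CPM, 0.65 ± 0.48 (SE), WT mouse 2 being the low one. The smallest p in this complex belonged to the stalk subunit Atp5j, with 37.5 and 22.3 CPM in the WT pair and a KO range of 35.5 to 48.0 CPM, 0.52 ± 0.24 with an adjusted p of 0.382 by edgeR. Atp5j2 and Atp5k, subunits of the membrane part, had 0.37 ± 0.23 and 0.55 ± 0.36 (SE). The rotor subunits Atp5e and Atp5d had -0.67 ± 0.32 and -0.38 ± 0.22, and Atp5sl, which is not a subunit, -0.33 ± 0.25 (SE). Atp5e read 42.2 and 98.9 CPM in the WT pair, and the KO libraries ran from 37.3 to 49.8 CPM, so WT mouse 2 alone was high.

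**Figure D3:**
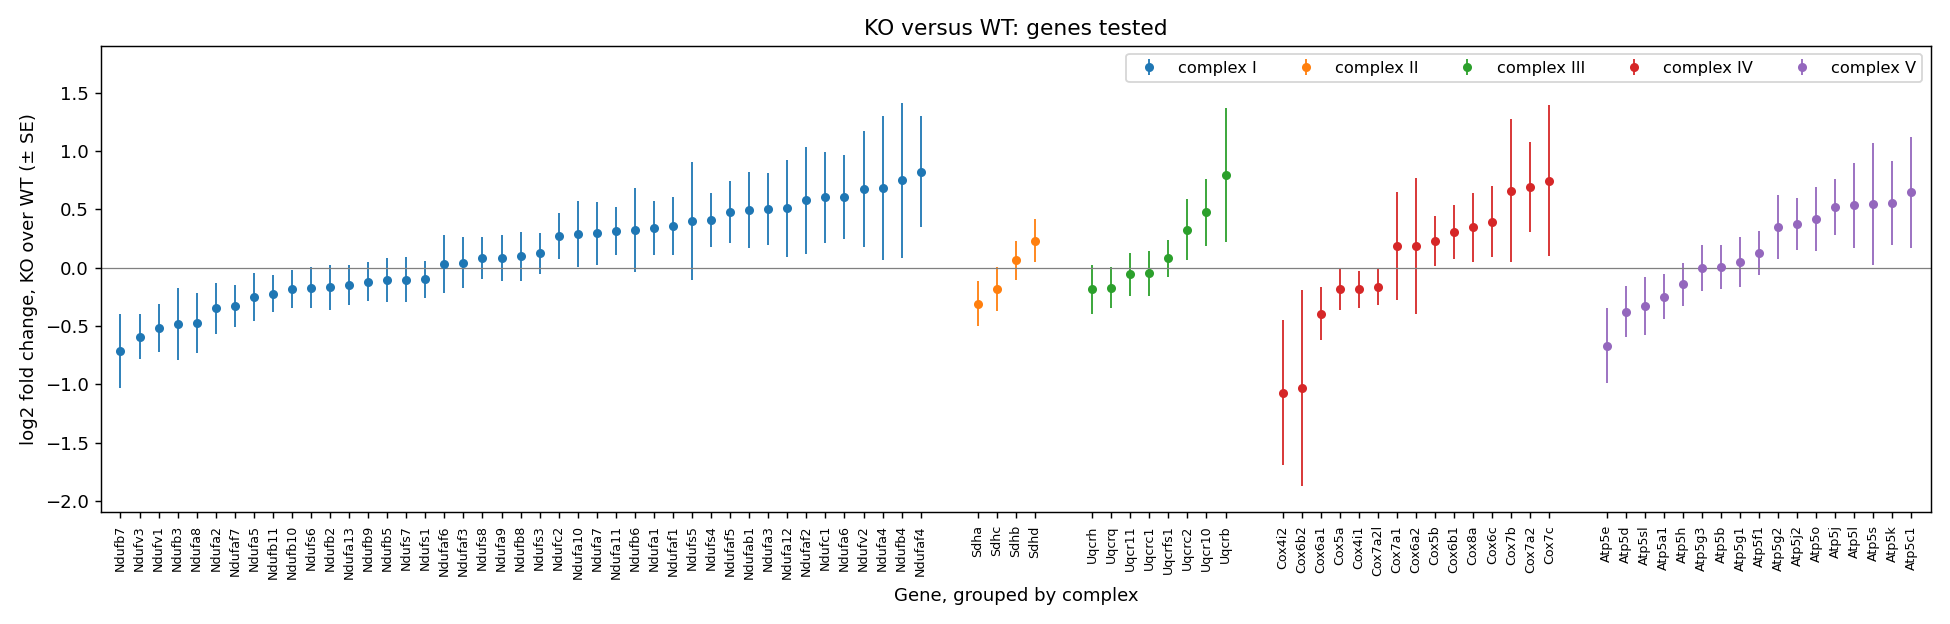
Log2 fold change of the tested members in KO against WT, 1 gene left out, with bars of 1 standard error, grouped by complex. Values lie on both sides of 0 in each complex, between -1.07 (Cox4i2) and 0.82 (Ndufaf4), and none passed the test.

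The clones were compared with WT and with each other in a fit with 3 groups, in which the clone contrasts share the WT libraries. Clone 1 against WT gave 0 called members, against 0.00643% of all genes, 0 at an unadjusted p under 0.05 (7.1% of all genes) and a median of 0.12. Clone 2 against WT gave 0 called members, against 0.00643% of all genes, with 2 at an unadjusted p under 0.05 (11.3% of all genes) and a median of 0.09. These 2 were Cox4i2, at -1.84 ± 0.64, and Ndufv3, at -0.68 ± 0.24 (SE). Their adjusted p by edgeR were 0.412 and 0.418. Without WT mouse 2 the value of Cox4i2 was -0.74. DESeq2 and limma-voom called 0 members in both contrasts, where DESeq2 called 1.78% of all genes for clone 1 and 3.05% for clone 2 and limma-voom 0.00643% for each. DESeq2 placed 0 members under an unadjusted 0.05 for clone 1 and 2 for clone 2, and limma-voom 0 and 1. The share of all genes under 0.05 was not counted for these tools. Both clone 1 libraries lay above both WT libraries for 3 members (17.8% of all genes) and below for 10 (14.7%). Both clone 2 libraries lay above for 28 members (27.1% of all genes) and below for 14 (24.7%).

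Between the clones, edgeR called 0 members and 0% of all genes. At an unadjusted p under 0.05 there were 0 members with edgeR (3.23% of all genes), 1 with DESeq2 and 0 with limma-voom. For DESeq2 and limma-voom the share of all genes under 0.05 was not counted. After adjustment neither of them called a member, where DESeq2 called 0.767% of all genes and limma-voom 0%. Values were positive for 64 of 88 members, with a median of 0.09 against -0.02 over all genes. For complex V, 16 of 17 members were higher on average in clone 2, and for complex II all 4. Without clone 1 mouse 1 the values were positive for 29 of 89, median -0.03, and without clone 1 mouse 2 for 78, median 0.24. Both clone 2 libraries were above both clone 1 libraries for 18 members (22.1% of all genes) and below for 6 (22.5%).

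The members with the smallest p between clones did not pass, each with an adjusted p of 1 by edgeR. Ndufb6, a membrane-arm subunit, was at 20.1 and 28.9 CPM in clone 1 and 35.4 and 39.2 CPM in clone 2, a log2 difference of 0.60 ± 0.38 (SE). Uqcrh, the hinge protein of complex III, was at 73.1 and 92.8 CPM in clone 1 and 107 and 112 CPM in clone 2, 0.40 ± 0.22 (SE). Both clone 2 libraries were above both clone 1 libraries for these genes. For Ndufb6 WT mouse 1 was at 33.4 CPM, between the clones, and WT mouse 2 at 15.3 CPM, below all KO libraries. For Uqcrh the WT libraries were at 99.5 and 116 CPM, both above clone 1, and WT mouse 2 above all KO libraries. Atp5h, a stator subunit, had 0.29 ± 0.21, the assembly factor Ndufaf3 -0.36 ± 0.23 and Uqcrc1 -0.26 ± 0.23 (SE).

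Several subunits have isoforms known from particular tissues, and these were scarce beside the ubiquitous form. Cox4i2, the form induced by low oxygen and known from lung, was at 1.15 and 3.87 CPM in WT, 1.92 and 1.44 CPM in clone 1, and 0.716 and 0.678 CPM in clone 2. Both clone 2 libraries lay under all 4 others. Per kilobase, Cox4i2 made up 0.342% to 1.69% of the sum with Cox4i1, from 28 to 79 reads a library. Cox6a2, the heart and skeletal muscle form, was at 6.85 and 1.80 CPM in WT, 6.08 and 7.99 CPM in clone 1, and 3.35 and 2.86 CPM in clone 2. Its share of the sum with Cox6a1 per kilobase was 7.22% and 1.30% in WT, 7.56% and 7.56% in clone 1, and 3.85% and 2.95% in clone 2. The clone 2 libraries lay between the WT libraries and under clone 1. KO against WT gave 0.19 ± 0.58 for Cox6a2 and -1.07 ± 0.62 (SE) for Cox4i2, and without WT mouse 2 these were -0.45 and 0.025. Clone 2 against clone 1 gave -1.18 ± 0.56 for Cox6a2 and -1.27 ± 0.63 (SE) for Cox4i2, each with an adjusted p of 1 by edgeR. Summed skeletal muscle markers (6 genes) were at most 2.13 CPM in any library. An exon on the other strand overlaps Cox6a2, and the labels do not state whether counting used strand.

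Cox7a1, a second muscle form, was at 0.716 to 1.82 CPM, or 1.29% to 4.61% of the sum with Cox7a2 per kilobase, and Cox6b2, the testis form, made up 0.0404% to 0.973% of the sum with Cox6b1. Cox7a2l, known for assembling supercomplexes, read 168 and 189 CPM in the WT pair, and the KO libraries ran from 149 to 174 CPM. The 3 genes for the c ring of ATP synthase encode the same mature protein. Per kilobase Atp5g2 was highest at 199 CPM per kb, then Atp5g3 at 110 and Atp5g1 at 16.6. This order depends on annotated exon length, 731, 724 and 4912 bases respectively. Before scaling by length, the medians of the 5 libraries other than WT mouse 2 were 145, 79.6 and 81.5 CPM. The KO-against-WT values of the 3 genes, in the same order, were 0.35 ± 0.27, -0.01 ± 0.20 and 0.05 ± 0.22 (SE), none of which passed.

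**Figure D4:**
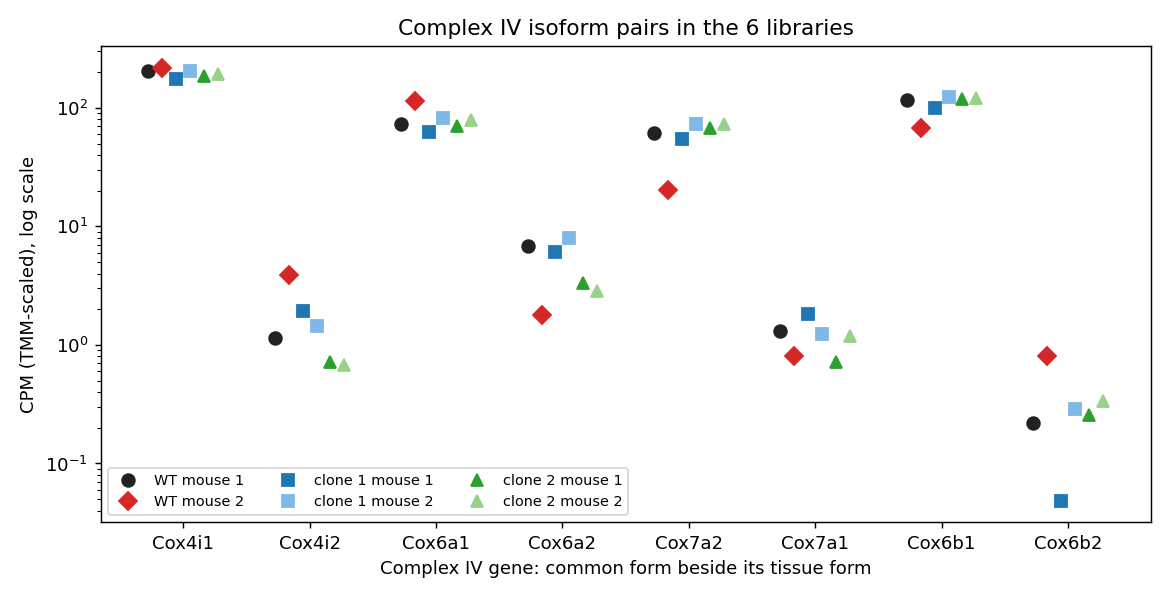
CPM on a log axis of 4 complex IV subunits with a common and a tissue form (Cox4i1 and Cox4i2, Cox6a1 and Cox6a2, Cox7a2 and Cox7a1, Cox6b1 and Cox6b2), 1 point per library. Each tissue form lies far under its common form, and the clone 2 points for Cox6a2 (3.35 and 2.86 CPM) lie under those of clone 1 (6.08 and 7.99 CPM).

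Many members stood far apart in WT mouse 2, in both directions. Of 82 members with a mean of at least 5 CPM, WT mouse 2 was below all 5 other libraries for 44 (53.7%), above all 5 for 26 (31.7%) and within their range for 12. Over 10589 symbols of that level the shares were 44.5% and 33.3%. It was under 0.25 times the median of the others for 8 members (313 of the 10589 symbols) and over 1.5 times it for 8 (1958 of the 10589). Ndufb4, a membrane-arm subunit, was the lowest by this measure at 4.27 CPM against 26.5 to 38.8 CPM in the other libraries. Ndufa4, now counted as a complex IV subunit, was at 5.54 CPM against 26.1 to 40.7 CPM, and Cox7b at 16.1 against 86.2 to 115 CPM. At the other end, Ndufb7 was at 86.2 CPM against 35.4 to 42.2 CPM and Atp5e at 98.9 against 37.3 to 49.8 CPM. Ndufb4 and Ndufb7, subunits of the same membrane arm, thus lay on opposite sides in this library.

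This position moved with base composition. Across 81 members with an annotated transcript, the difference in log2(CPM + 0.5) between WT mouse 2 and the median of the others had a Pearson r of 0.47 (Spearman rho 0.41) with the G+C content of the transcript, and across 10055 symbols r was 0.58 (rho 0.61). By complex, r with G+C content was 0.45 in complex I, 0.59 in III, 0.73 in IV and 0.20 in V. In complex II, with 4 genes, it was -0.23. All points share 1 library, and with transcript length the members' r was 0.13. For the 27 members with the lowest G+C (38.4% to 48.6%) the median difference was -0.91, for the middle 27 it was -0.43, and for the 27 with the highest G+C (53.7% to 63.3%) it was 0.11. The KO-against-WT medians of the same groups were 0.36, 0.12 and -0.07 with all libraries, and -0.05, -0.06 and -0.03 without WT mouse 2. The order by G+C in the genotype comparison was seen with all libraries and not without WT mouse 2.

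**Figure D5:**
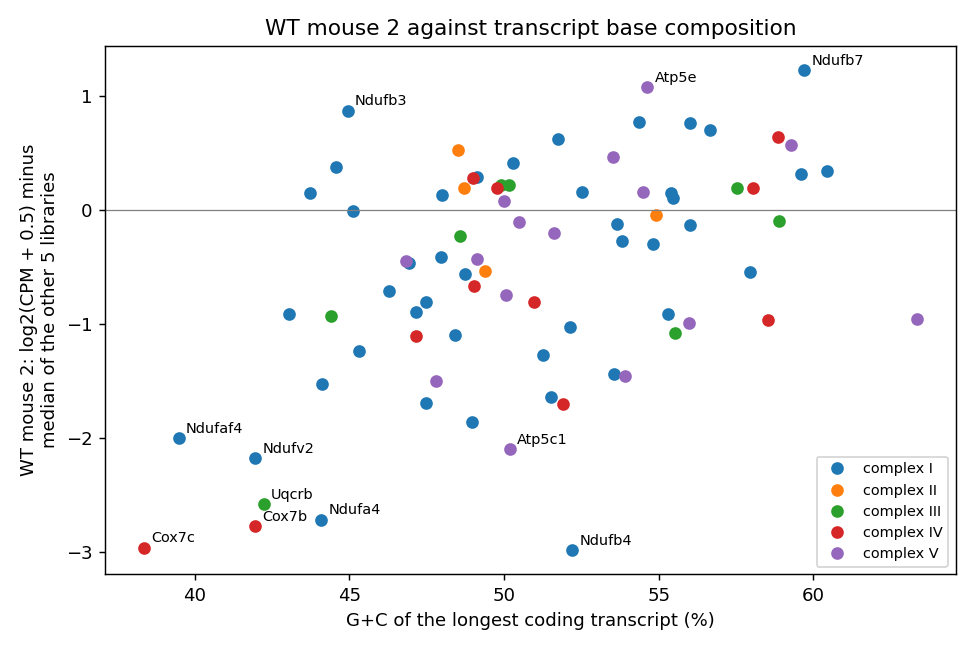
Log2(CPM + 0.5) of WT mouse 2 minus the median of the other 5 libraries, against the G+C content in percent of the longest coding transcript, for 81 members coloured by complex. The ratio is mostly negative at low G+C content and spreads around 0 at high G+C content, with Pearson r 0.47.

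Clone 1 mouse 1 differed from the others in another way, with most members somewhat low. Among the 5 libraries other than WT mouse 2 it was the lowest for 71 of 82 members (86.6%), against 33.9% of all symbols, and for 65 of 76 cytosolic ribosomal protein genes (85.5%). Its median log2 difference from WT mouse 1 was -0.23 with an interquartile range of 0.17 over members, and -0.02 with a range of 0.44 over all symbols. In WT mouse 2 the same measure was -0.43 with a range of 1.25 over members, and -0.08 with a range of 1.10 over all symbols. Clone 1 mouse 1 thus had a small shift common to the members, and WT mouse 2 a wide scatter, over all symbols as well as members. The other 3 KO libraries had medians of 0.01 to 0.07 on this scale. Summed T and NK cell markers were highest in clone 1 mouse 1 (130 CPM), with 59.5 CPM of this from Gzmb, which read 2.35 to 21.5 CPM elsewhere. Summed fibroblast markers were lowest (2357 CPM) through Col3a1 at 1842 CPM, while Col1a2 was highest there (79.5 CPM against 19.7 to 44.8 CPM). The part of these genes' cells in the shift was not tested.

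Genes that work with the 5 complexes gave no call in any contrast. Over all genes tested, 7806 of 15560 had positive KO-against-WT values. Of 77 mitochondrial ribosomal protein genes 57 were positive, median 0.19, and WT mouse 2 was below all 5 other libraries for 53 of the 77. Of 33 tested assembly factors for complexes II to V, 26 were positive, median 0.18, and Coa5 stood out by p with 84.1 and 59.6 CPM in the WT pair and a KO range of 99.4 to 124 CPM, 0.56 ± 0.19 (SE). The copper carrier Sco1 had 0.41 ± 0.16 (SE). Their adjusted p by edgeR were 0.322 and 0.344. Of 17 citric acid cycle genes 10 were positive, median 0.15. Malate dehydrogenase Mdh2 among them read 68.6 and 244 CPM in the WT pair, and the KO libraries ran from 66.0 to 84.5 CPM, -1.12 ± 0.42 (SE), with WT mouse 2 alone high. Of 15 genes of mitochondrial biogenesis 8 were positive, median 0.15. Tfam, which packages and transcribes mitochondrial DNA, had 0.41 ± 0.24 (SE), and Gabpb1 and Yy1 had 0.47 ± 0.20 and 0.44 ± 0.28. In the other direction Polrmt had -0.55 ± 0.23, Ppargc1b -1.20 ± 0.52 and Polg2 -0.60 ± 0.27 (SE). Cytosolic ribosomal protein genes had 54 of 79 positive, median 0.13. Among genes of these lists with a mean of at least 5 CPM, WT mouse 2 was below all other libraries for 20 of 29 assembly factors. The same held for 11 of 17 citric acid cycle genes, 8 of 13 biogenesis genes and 51 of 76 cytosolic ribosomal protein genes. Over all 10589 symbols of that level the share was 44.5%. The part of WT mouse 2 in the positive counts above was not tested.

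The list for low oxygen held the members with the smallest p among these lists. Hif1a, the oxygen-regulated transcription factor, read 266 and 130 CPM in the WT pair, and the KO libraries ran from 374 to 403 CPM. All 4 KO libraries were above both WT libraries, and the value was 0.97 ± 0.28 (SE) with an adjusted p of 0.269 by edgeR. The matrix protease Lonp1, which degrades Cox4i1 protein under low oxygen, read 123 and 213 CPM in the WT pair, and the KO libraries ran from 87.0 to 102 CPM, -0.87 ± 0.24 (SE), adjusted p 0.245. Of these 7 genes 3 were positive, median -0.07. Complex I assembly factors outside the Nduf symbols had 3 of 7 positive, median -0.07. The remaining subunits and carriers had 2 of 7 positive, median -0.08, with cytochrome c (Cycs) at 0.65 ± 0.32 and the electron carrier Etfb at -0.69 ± 0.26 (SE), neither past the test.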

How the data were processed

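RNA from macrophages sorted out of MC38 tumours was sequenced after ribosomal RNA depletion with a TruSeq kit, per the labels' protocols. The values the authors deposited are estimated counts per gene symbol, not scaled to library size, from Salmon 0.7.2 per the submitters' processing notes, which also list mm10. The transcript set, the strand setting and how transcripts were joined to genes are not stated in the labels. Replicate libraries differed by more than counting noise, so each was 1 sample.

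Counts were rounded. edgeR 4.0.16 under R 4.3.3 gave a quasi-likelihood F test with filterByExpr (minimum count 10, minimum total 15) and TMM, and p-values were adjusted by Benjamini-Hochberg over all 15560 genes at a threshold of 0.05. KO against WT had 2 genotype levels, and clone contrasts had 3 groups with 1 shared estimate of the spread. Standard errors are the size of the log2 fold change over the square root of F. Mice that carried the same clone do not replicate the knockout itself. Other settings tried were DESeq2 1.42.0, limma-voom 3.58.1, RLE size factors, other count filters, removal of Rn45s, CPM on raw totals, the mouse number as a block, the mean of both clones, and leaving out each library.

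Positions, exon lengths and G+C content are from GENCODE M21 (GRCm38), which matched 90 of 91 members. Of the members, 21 have a near copy elsewhere (blastn 2.17.0, at least 95% identity over 200 bases), 18 of them a pseudogene, and 26 overlap an exon of another gene, so their counts are uncertain one by one. The members and lists were chosen with earlier results of these data known. Genes were named by a rule: core subunits and isoform groups whatever their result, the 3 members per complex and direction with the smallest p between genotypes, 2 between clones, and up to 3 per direction in each other list. A gene that this rule names is not reported here. Members standing apart in WT mouse 2, and those not overlapping between groups, were named after their values were seen.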

Additional observations from a re-analysis of the deposited data

Results flagged for a closer look

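In the 4 KO libraries, 14 of 82 members with a mean of at least 5 CPM had 1 library far from the other 3. Far was judged relative to the range of the group. With the summed levels 88 groups were examined, and no sum was flagged. Chance flags about 1 in 20 groups, and the members are not independent of each other. The rule was not run on other symbols, so no share over all genes stands beside these counts. In 11 of the 14 the library was clone 1 mouse 1, and it was low. Its levels were 501 CPM for Atp5a1, 170 CPM for Atp5c1, 176 CPM for Atp5f1, 100.4 CPM for Cox6b1, 23.5 CPM for Ndufa3, 26.1 CPM for Ndufa4, 26.5 CPM for Ndufb4, 36.6 CPM for Ndufs3, 38.7 CPM for Ndufs4, 47.4 CPM for Sdhc and 80.0 CPM for Sdhd. In the other 3 it was clone 1 mouse 2, and it was high, at 160.3 CPM for Cox8a, 25.5 CPM for Ndufa11 and 172 CPM for Uqcrc1.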

How the results depend on the processing

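The count of called members was 0 in each contrast under each alternative that keeps all 6 libraries. Leaving out 1 library gave 0 to 47 called members for KO against WT, 0 to 46 for clone 1 and 0 to 48 for clone 2 against WT, the highest in each case without WT mouse 1. The median then ran from -0.041 to 0.31 for KO against WT and from -0.092 to 0.27 for clone 1 against WT. A group left with 1 library is assumed to vary like the others. With the mouse number as a replicate block, 0 members were called and the KO-against-WT median was 0.10, but mouse numbers did not pair the libraries (correlations of deviations -0.25, 0.05 and 0.22). All genes called between genotypes went from 21 to 499 with DESeq2, 111 with no filter beyond 1 count and 1 with the mean of both clones. Between clones, the sign of Cox4i1 turned with DESeq2 (0.0039) and RLE size factors (0.0039). With 1 library left out, signs turned within these ranges for KO against WT: Atp5e -1.16 to 0.086, Cox4i2 -1.74 to 0.025, Cox6a2 -0.45 to 1.45, Cox6b1 -0.036 to 0.74, Cox6c -0.055 to 1.02, Ndufb7 -1.22 to 0.060, Uqcr11 -0.15 to 0.0079 and Uqcrc2 -0.095 to 0.89. For clone 1 against WT it was Cox4i2, -1.24 to 0.52, and for clone 2 against WT Cox6a2, -1.16 to 0.74. Between clones they were Cox4i1 -0.13 to 0.11, Cox8a -0.34 to 0.051, Ndufv1 -0.25 to 0.087, Uqcr10 -0.0044 to 0.48 and Uqcrq -0.23 to 0.11. On raw totals the log2 ratio of the KO to the WT mean of summed CPM turned from -0.058 to 0.085 for complex II, and went from 0.049 to 0.15 for complex I, 0.14 to 0.23 for III, 0.18 to 0.25 for IV and 0.047 to 0.14 for V. Raw totals differ from the main setting only in leaving out the TMM factors, which were 0.748 in WT mouse 2 and 0.977 to 1.15 elsewhere. Why the factor of WT mouse 2 was low was not tested.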
